A study of Mus musculus with 2 samples.

Results

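The 9 genes described here encode actins, tropomyosins, calponins, a myosin light chain and an actin nucleator of the contractile apparatus of smooth muscle: Acta2, Actg2, Tagln, Cnn1, Cnn2, Myl9, Tpm1, Tpm2 and Lmod1. They were picked by symbol from the 25509 genes of the deposited count table, and each symbol matched 1 row. The table holds 2 RNA-seq libraries of mouse sarcoma cells, 1 from cells that received a control hairpin (shCTR) and 1 from cells that received a hairpin against the circular RNA circCsnk1g3 (shcircCsnk1g3). Both lots of cells are of C57BL/6 origin and share the same history: mesenchymal stem cells lacking p53 and overexpressing Ccne1 (cyclin E1) were grown as subcutaneous tumors, passed to the lungs of further mice, taken back from the lung foci and then transduced with lentiviral hairpins. The hairpin against circCsnk1g3 is aimed at the backsplice junction, which the linear transcript lacks. The comparison asks how the RNA of the tumor cells differed once circCsnk1g3 was silenced. With 1 library in each group there was no replicate check and no test between conditions, and the intervals below cover counting error within these libraries only. The circular RNA itself has no poly(A) tail and was not measured in these poly(A) libraries.

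Smooth muscle shortens when myosin, switched on by phosphorylation of its regulatory light chain, pulls on actin filaments that tropomyosin and calponin coat. Many genes of this apparatus share a control element, the CArG box, which binds serum response factor (SRF) together with its coactivators myocardin and the myocardin-related factors MRTF-A and MRTF-B. In cultured fibroblasts and mesenchymal cells the same genes are used for stress fibers, and a high level of Acta2, Tagln and Cnn1 marks the myofibroblast state.

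Among these genes, Cnn1, Tagln and Myl9 had clearly fewer counts in the shcircCsnk1g3 library, whereas Acta2, Actg2, Tpm1 and Tpm2 had nearly the same scaled counts in both libraries. Cnn1 was 4.34-fold lower, Tagln 2.51-fold lower and Myl9 1.93-fold lower in the shcircCsnk1g3 library, as plain ratios of the scaled counts. Cnn2 was lower by a smaller amount (1.18-fold), and Lmod1 was not detectable above the floor in either library. The 3 genes with the largest differences were also the 3 with the lowest counts among the 8 genes that could be compared.

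Because the contractile genes are known for CArG boxes, bases ahead of the gene are shown for both calponin genes and for Myl9, which cover 2 genes with large differences and 1 that hardly differed. They come from the RefSeq windows on GRCm38.p6, which start 250 bases before the RefSeq start, and run 5' to 3' on the gene's strand. The GENCODE annotation starts these genes earlier than RefSeq does, by 37 bases for Cnn1, 16 for Cnn2 and 44 for Myl9, and the stretches shown end ahead of both starts. Capitals mark a CArG box (CC and GG enclosing 6 bases that are each A or T). The stretches are chr9:22099003-22099215 (plus strand) for Cnn1, chr10:79988350-79988583 (plus) for Cnn2 and chr2:156775214-156775419 (plus) for Myl9.
Cnn1: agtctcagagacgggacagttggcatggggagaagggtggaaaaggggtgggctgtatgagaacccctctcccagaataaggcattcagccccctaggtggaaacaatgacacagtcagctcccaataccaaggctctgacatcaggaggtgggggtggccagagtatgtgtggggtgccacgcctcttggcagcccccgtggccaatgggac
Cnn2: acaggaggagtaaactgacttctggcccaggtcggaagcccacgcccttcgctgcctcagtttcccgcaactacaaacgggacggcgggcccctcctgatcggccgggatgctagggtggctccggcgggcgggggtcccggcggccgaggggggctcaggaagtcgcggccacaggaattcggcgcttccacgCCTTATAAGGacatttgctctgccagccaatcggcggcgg
Myl9: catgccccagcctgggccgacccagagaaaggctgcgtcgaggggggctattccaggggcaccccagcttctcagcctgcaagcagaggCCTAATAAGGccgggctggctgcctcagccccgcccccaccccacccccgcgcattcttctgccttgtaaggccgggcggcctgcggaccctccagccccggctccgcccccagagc

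A CArG box began at position -161 from the RefSeq start in Myl9 and at position -56 in Cnn2, and the TEAD factor motif CATTCC was found in the Acta2 window at position -146, on the strand opposite the gene. The Cnn1 window held neither. In the GENCODE annotation 217 of the 250 bases before the RefSeq start of Acta2 lie inside the gene, as do 193 for Tpm1 and 211 for Tpm2, so that the matches given for Acta2 and Tpm1 are ahead of the start in RefSeq and not in GENCODE. With up to 1 base off the CArG pattern allowed, a search chosen after seeing the data and not marked in capitals, the Acta2 window held matches at positions -84 and -34, and that of Myl9 held 1 more at -99. Matches under this looser rule were present in 5 of the 7 windows, those of Cnn1 and Tpm2 being the exceptions, and in 21.1% of all windows. Both strands were searched in windows from 250 bases before to 50 bases after the start. Of the 9 genes, 7 had such a window, and Tagln and Actg2 are named only. A CArG box was present in 1.63% of all 32817 windows of the table and CATTCC in 14.7%, and these motifs did not overlap each other in the windows of the 9 genes. The remaining windows, those of Tpm1, Tpm2 and Lmod1, held no CArG box of the strict pattern, and CATTCC was present in those of Tpm1 (-56) and Lmod1 (-130). The TATA motif TATAAA, searched in the same way, was found in none of the 7 windows and in 13.6% of all windows. A strict CArG box in this window was thus seen in Myl9, which was almost 2-fold lower, and in Cnn2, which differed little. None was seen in Cnn1, the lowest of the genes. Tagln had no window, and a link between these motifs and the differences was not tested.

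The libraries summed to 38792143 counts for shcircCsnk1g3 and 42709996 for shCTR. Counts were scaled with TMM factors of 1.01 and 0.989 to the usual CPM scale (counts relative to the size of the library), and the log2 fold change of shcircCsnk1g3 over shCTR was taken with a prior count of 2, which draws the values of low genes slightly toward 0 compared with the plain ratios given above. The range that follows a log2 fold change in parentheses is the 95% counting interval of the plain ratio, without the prior, taken by the exact Clopper-Pearson method. A gene was compared if either library held 10 counts or more, which was true of 12941 genes. A count of 3 or fewer was treated as the floor, which is 0.0765 CPM in shcircCsnk1g3 and 0.0710 CPM in shCTR.

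As labelled, the cells expressed mesenchymal genes strongly, and the genes of the smooth muscle program were present in part. Vim, the intermediate filament of mesenchymal cells, had 225330 counts in shcircCsnk1g3 and 282350 in shCTR, and the collagen gene Col1a2 had 78250 and 71642. Of 35 smooth muscle genes beside the 9, 8 were at or under 3 counts in both libraries, and others were well expressed, such as Smtn (5609 and 7774 counts), Cald1 (9178 and 10996) and Synpo2 (683 and 859). The smooth muscle myosin heavy chain Myh11 had 4 and 0 counts, the muscle intermediate filament Des had 14 and 6, and Myocd, which encodes myocardin, had 0 in both. Of 16 fibroblast and mesenchymal markers, 2 were at or under 3 counts in both libraries, Thy1 (0 and 1) and Fap (1 and 0), and the list summed to 14482 and 15217 CPM. Its genes differed in both directions. Among those with at least 200 summed counts they ranged from Pdgfra at -0.31 (-0.35 to -0.27) to Col3a1 at 0.37 (0.35 to 0.39). Many markers of other cells were near the floor. Of 15 leukocyte markers 13 were at or under 3 counts in both libraries, as were 7 of 11 endothelial, 7 of 13 lung epithelial, 22 of 30 striated muscle and 4 of 12 pericyte markers. Ptprc (1 and 0 counts), Kdr, Epcam, Sftpc, Myod1, Kcnj8 and Abcc9 (0 in both) were among these. The summed level was 2.30 CPM in shcircCsnk1g3 and 3.88 CPM in shCTR for the leukocyte list, almost all of it Cd68 (87 and 155 counts), which was lower at -0.71 (-1.12 to -0.34). It was 6.63 and 7.91 CPM for the striated muscle list, of which Mylpf (29 and 58 counts, -0.85, -1.59 to -0.23) and Ttn (40 and 66 counts, -0.59, -1.22 to -0.03) had intervals below 0. It was 42.5 and 34.4 CPM for the endothelial list, nearly all of it Flt1 (1646 and 1421 counts), and 18.5 and 19.4 CPM for the lung epithelial list, mostly Hopx (605 and 742 counts), while Krt8 was higher at 1.07 (92 and 46 counts, 0.58 to 1.65). The pericyte list summed to 521 and 444 CPM, with Pdgfrb and Cspg4, which mesenchymal cells share, holding most of it, while Rgs5 had 1 and 4 counts. Cspg4 was higher at 0.37 (15833 and 13207 counts, 0.34 to 0.40), and 2 further pericyte markers were lower: Mcam at -0.68 (439 and 760 counts, -0.86 to -0.51) and Anpep at -0.68 (303 and 525 counts, -0.89 to -0.48). These markers moved beside Cnn1, Tagln and Myl9, and their part in the differences of those genes was not tested. In these bulk libraries, fewer cells that express a gene and less RNA per cell cannot be told apart.

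Levels can be compared between genes only per length, so counts were also divided by the kilobases of annotated exon and scaled to a common total (TPM). In the shCTR library this level, in TPM, was highest for Cnn2 (426), followed by Tpm1 (350), Tpm2 (187), Actg2 (66.0), Myl9 (46.6), Acta2 (39.9), Tagln (10.1), Cnn1 (4.72) and Lmod1 (0.0378). The genes that define the contractile smooth muscle state were thus the weakest of the list in the control cells, and the genes shared with non-muscle cells were the strongest. In the shcircCsnk1g3 library the order was the same except that Acta2 (46.2) stood above Myl9 (24.8). The counting intervals of neighbors in these orders did not overlap in either library, and the spread between cultures is not known. The order at the top depends on the length used, because the annotated exons of Tpm1, from 21 transcripts, cover 6485 bases and its longest transcript 2890: with the longest transcript as the length, Tpm1 (600) stood above Cnn2 (326) in shCTR, and likewise in shcircCsnk1g3 (598 and 283).

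**Figure D1:**
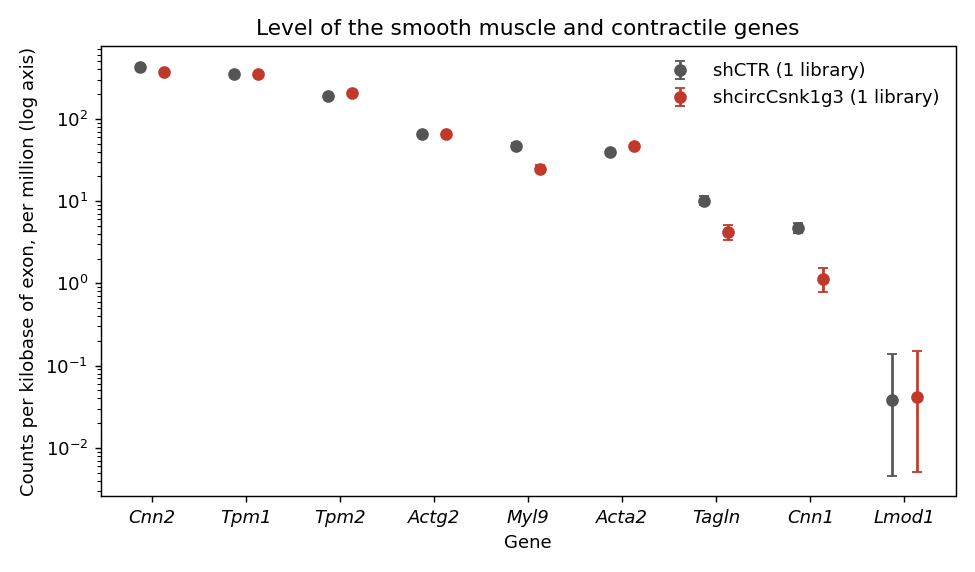
Level of each of the 9 genes per length (TPM, from counts per kilobase of annotated exon, log axis) in the shCTR library (grey) and the shcircCsnk1g3 library (red), with 1 library per group and bars for the 95% exact Poisson interval of the count. Cnn1, Tagln, Myl9 and, by a smaller amount, Cnn2 show separate intervals with the red point below the grey. Acta2 and Tpm2 show separate intervals with the red point above. The wide bars of Lmod1 stand for 2 counts in each library.

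The calponins bind actin filaments and restrain the myosin motor. Cnn1 encodes the basic calponin of differentiated smooth muscle (ENSMUSG00000001349, plus strand of chromosome 9 from 22099216 to 22109630, GRCm38). It had 37 counts in shcircCsnk1g3 and 173 in shCTR, which is 0.944 CPM (0.664 to 1.30, exact Poisson interval) against 4.09 CPM (3.51 to 4.75). The log2 fold change was -2.06 (-2.67 to -1.60). Ranked from the lowest log2 fold change, Cnn1 stood at place 3 of the 10662 genes whose counts in both libraries sum to 200 or more, and its own sum of 210 lies just above that limit. Cnn2, the calponin of non-muscle and smooth muscle cells (ENSMUSG00000004665, chromosome 10, 79988584 to 79996062, plus strand), had 11025 counts in shcircCsnk1g3 and 14042 in shCTR, a log2 fold change of -0.24 (-0.28 to -0.21). The third calponin gene, Cnn3, which is not one of the 9, had 11124 and 13823 counts and a log2 fold change of -0.21 (-0.24 to -0.17). The difference in Cnn1 was therefore far larger than that in either relative, and the intervals did not touch.

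Tagln encodes transgelin (SM22-alpha), an actin-bundling protein related to the calponins (ENSMUSG00000032085, chromosome 9, 45929619 to 45936058, minus strand). It had 100 counts in shcircCsnk1g3 and 270 in shCTR, or 2.55 CPM (2.07 to 3.10) against 6.39 CPM (5.65 to 7.20). Its log2 fold change was -1.31 (-1.67 to -0.99), place 31 from the lowest of the 10662 genes. Tagln2, the paralog that most cells express, had 16327 and 20837 counts and stood at -0.24 (-0.27 to -0.21), and Tagln3, with 23 and 20 counts, had an interval that spanned 0 (-0.62 to 1.25). In the annotation, 62.4% of the exon bases of Tagln lie opposite the antisense gene Gm48529, which was not analysed here, and 5.43% opposite Pcsk7, with 1078 and 1180 counts. The library kit keeps the strand, but whether the counting used it is not stated in the sources used here, so reads from the opposite strand in Tagln cannot be told apart from its own.

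Myl9 encodes the regulatory light chain whose phosphorylation starts smooth muscle contraction (ENSMUSG00000067818, chromosome 2, 156775420 to 156781658, plus strand). Its count was 349 in shcircCsnk1g3 and 725 in shCTR, or 8.90 CPM (7.99 to 9.88) against 17.2 CPM (15.9 to 18.5). The log2 fold change of -0.94 (-1.14 to -0.76) stood at place 97 from the lowest. The non-muscle regulatory light chain genes differed from it. Myl12a had 21440 and 25653 counts and stood at -0.15 (-0.18 to -0.13) on the log2 scale, and Myl12b had 141 and 99 and stood at 0.61 (0.24 to 1.0). Among the essential light chain genes, Myl6 (14569 and 18057 counts) was at -0.20 (-0.23 to -0.17) and Myl6b (417 and 383) at 0.23 (0.03 to 0.43).

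**Figure D2:**
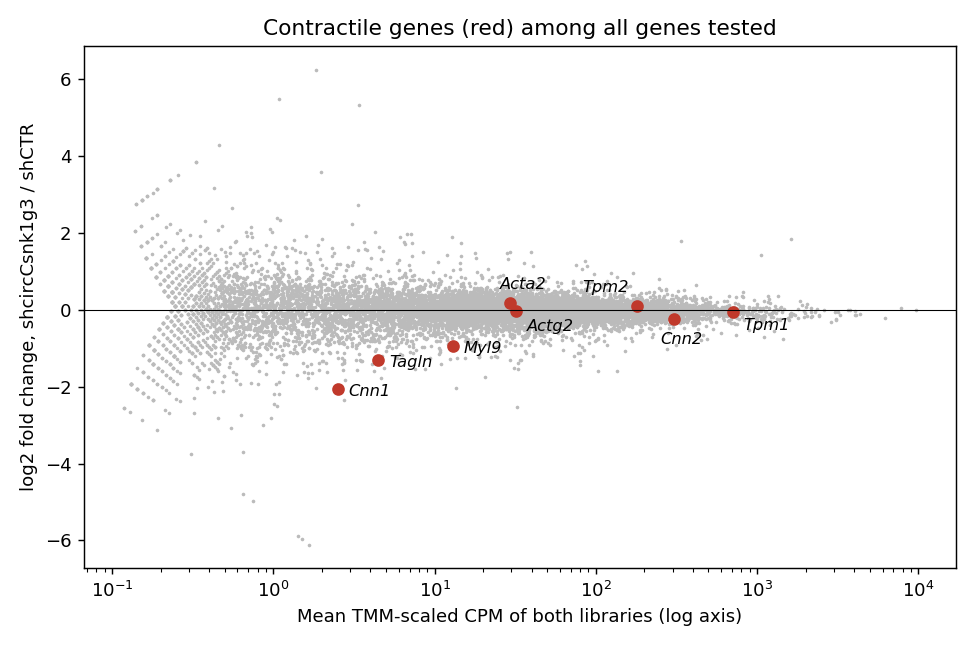
Log2 fold change (shcircCsnk1g3 over shCTR) against the mean level in both libraries (TMM-scaled CPM, log axis) for the 12941 genes tested, 1 grey point per gene, with the 8 contractile genes tested in red. Cnn1, Tagln and Myl9 lie at the lower edge of the cloud at their levels, and the other 5 lie close to 0.

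The smooth muscle actins did not share this difference. Acta2, which encodes smooth muscle alpha-actin (ENSMUSG00000035783, chromosome 19, 34241090 to 34255590, minus strand), had 1227 counts in shcircCsnk1g3 and 1174 in shCTR, or 31.3 CPM (29.6 to 33.1) against 27.8 CPM (26.2 to 29.4). Its log2 fold change was 0.17 (0.05 to 0.29), slightly higher in shcircCsnk1g3. Actg2, the gamma-actin of enteric smooth muscle (ENSMUSG00000059430, chromosome 6, 83512905 to 83536265, minus strand), had 1244 and 1377 counts, a log2 fold change of -0.04 (-0.15 to 0.07), with an interval that spans 0. The 2 cytoplasmic actin genes held most of the actin counts: Actb had 100735 and 136164, at -0.33 (-0.34 to -0.32) on the log2 scale, and Actg1 had 152538 and 178616, at -0.12 (-0.13 to -0.11). Acta1 of skeletal muscle had 37 and 51 counts (-0.34, interval -1.01 to 0.28), and Actc1 of the heart had 0 in both.

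Tropomyosins lie along the actin filament and gate the access of myosin. Tpm1 (ENSMUSG00000032366, chromosome 9, 67022590 to 67049406, minus strand) had 27370 counts in shcircCsnk1g3 and 30386 in shCTR, a log2 fold change of -0.04 (-0.07 to -0.02). Tpm2 (ENSMUSG00000028464, chromosome 4, 43514711 to 43523765, minus strand) had 7265 and 7301 counts and a log2 fold change of 0.10 (0.05 to 0.15). Tpm3 (25776 and 29664 counts) was at -0.10 (-0.12 to -0.07) and Tpm4 (35562 and 44576) at -0.22 (-0.24 to -0.20). All 4 tropomyosin genes thus differed by little. At counts this high the intervals are narrow, and the spread between cultures, which they leave out, is not known. Counts per gene do not separate the muscle from the non-muscle transcripts of Tpm1 and Tpm2.

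Lmod1 encodes leiomodin-1, which nucleates actin filaments in smooth muscle (ENSMUSG00000048096, chromosome 1, 135324807 to 135368065, plus strand). It had 2 counts in each library, under the floor, and no fold change is given. Its relatives Lmod2 and Lmod3 had 0 counts in both. The tropomodulins, which cap actin filaments and belong to the same family, were present: Tmod3 had 3213 and 3211 counts (log2 fold change 0.11, 0.04 to 0.18), Tmod2 had 1465 and 1426 (0.15, 0.04 to 0.25), and Tmod1 had 20 and 29 (-0.40, -1.33 to 0.44). Tmod4 was at or under 3 counts.

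**Figure D3:**
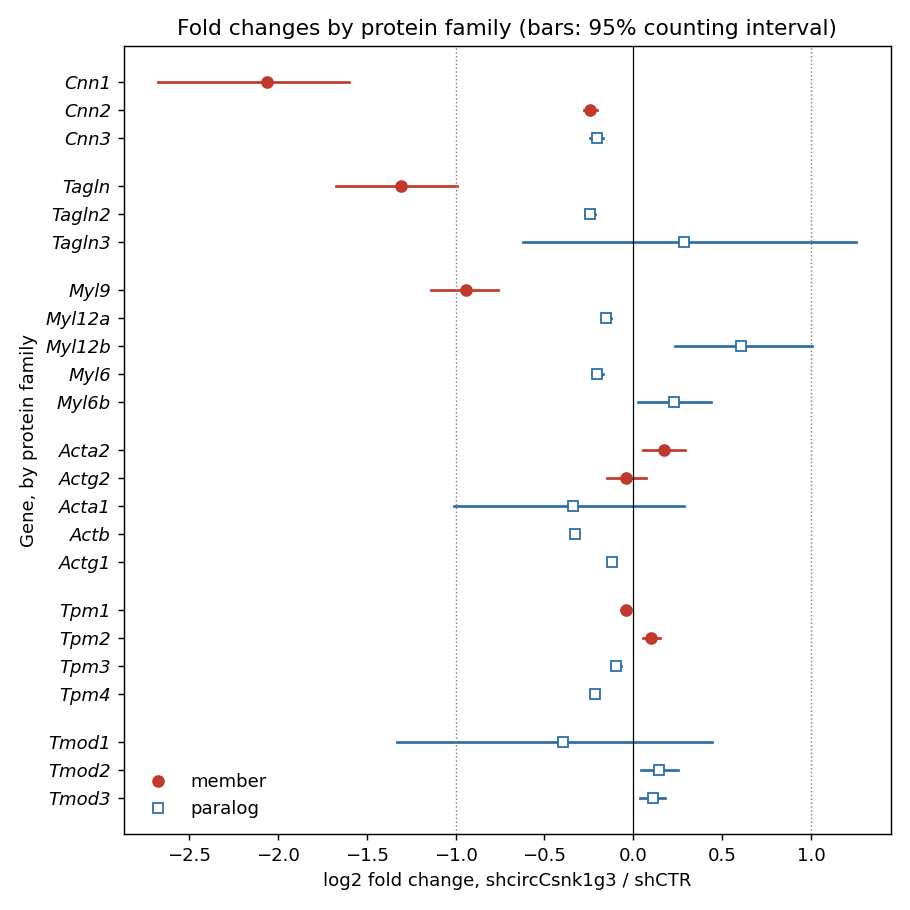
Log2 fold changes (shcircCsnk1g3 over shCTR) of the contractile genes (filled red circles, members) and their paralogs (open blue squares), grouped by protein family, with bars for the 95% exact interval of the ratio of counts and dotted lines at a 2-fold difference. In the calponin, transgelin and regulatory light chain families the smooth muscle gene lies far to the left of its abundant paralogs, while the actin and tropomyosin genes lie near 0.

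Of the 8 genes tested, 2 (Cnn1 and Tagln) were at least 2-fold lower in shcircCsnk1g3 and 0 were at least 2-fold higher, against 2.55% and 2.13% of all genes tested. With at least 200 summed counts, which all 8 have, these shares of all genes were 0.741% and 0.563%. At 1.5-fold, 3 were lower and 0 higher, against 6.31% and 5.39%. The genes were chosen with earlier results of these data known, so these counts and the places given above may partly follow from that choice. The interval lay below 0 for 5 (Cnn1, Tagln, Myl9, Cnn2 and Tpm1) and above 0 for 2 (Acta2 and Tpm2), against 28.2% and 26.9% of all genes. Intervals narrow with depth, and among genes with at least 200 summed counts these shares were 31% and 29.5%. The median log2 fold change of the 8 was -0.14, beside 0.00 for all genes tested. The median describes them poorly, since their values range from -2.06 to 0.17 and fall into 3 that are far below 0 and 5 within -0.24 to 0.17. The intervals of Cnn1 and Tagln overlapped, as did those of Tagln and Myl9, whereas those of Cnn1 and Myl9 did not.

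Ratios taken inside a library do not depend on the scaling between libraries. For each count of Tagln there were 12.3 counts of Acta2 (10.001 to 15.2) in shcircCsnk1g3 and 4.35 (3.81 to 4.98) in shCTR. For each count of Cnn1 there were 33.2 counts of Acta2 (23.9 to 47.3) and 6.79 (5.78 to 8.01), and for each count of Myl9 there were 3.52 (3.12 to 3.97) and 1.62 (1.47 to 1.78). These ranges did not overlap between the libraries, so the genes of the contractile apparatus differed unequally whatever scaling is used. The ratio of Tpm1 to Tpm2 differed by little, 3.77 (3.67 to 3.87) in shcircCsnk1g3 and 4.16 (4.06 to 4.27) in shCTR, and at these high counts its ranges did not overlap either. There were 0.986 counts of Acta2 (0.911 to 1.07) for each count of Actg2 in shcircCsnk1g3 and 0.853 (0.788 to 0.922) in shCTR, and the ratio of Tagln to Cnn1 was 2.70 (1.84 to 4.06) and 1.56 (1.28 to 1.90), with ranges that overlapped for both ratios. Whether ranges overlap depends on the depth of the genes as well as on the size of the difference.

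The share of a smooth muscle gene in the counts of its own protein family depends on the gene and on its paralogs. Cnn1 made up 0.167% (exact interval 0.117 to 0.230) of the counts of the 3 calponin genes in shcircCsnk1g3 and 0.617% (0.529 to 0.716) in shCTR. Tagln held 0.608% (0.495 to 0.739) of the counts of the 3 transgelin genes in shcircCsnk1g3 and 1.28% (1.13 to 1.44) in shCTR. Myl9 held 1.59% (1.43 to 1.77) and 2.74% (2.54 to 2.94) of those of the 3 regulatory light chain genes. Among the 6 actin genes the shares of Acta2 and Actg2 were higher in shcircCsnk1g3, and that of Actb was lower (39.4%, beside 42.9% in shCTR). Acta2 itself was slightly higher in scaled counts, and the summed actin counts were lower. The share of Acta2 was 0.480% (0.453 to 0.507) in shcircCsnk1g3 and 0.370% (0.349 to 0.392) in shCTR. That of Actg2 was 0.486% (0.460 to 0.514) and 0.434% (0.411 to 0.457). Among the 4 tropomyosin genes Tpm1 held 28.5% and 27.1% and Tpm2 7.57% and 6.52%, and Cnn2 held 49.7% and 50.1% of the calponin counts. Cnn1, Tagln, Myl9, Acta2 and Actg2 were minor in each of these families, and the family sums followed the abundant paralogs. The summed log2 fold change was -0.23 for the calponins, -0.25 for the transgelins, -0.16 for the regulatory light chains, -0.20 for the actins and -0.11 for the 4 tropomyosins.

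**Figure D4:**
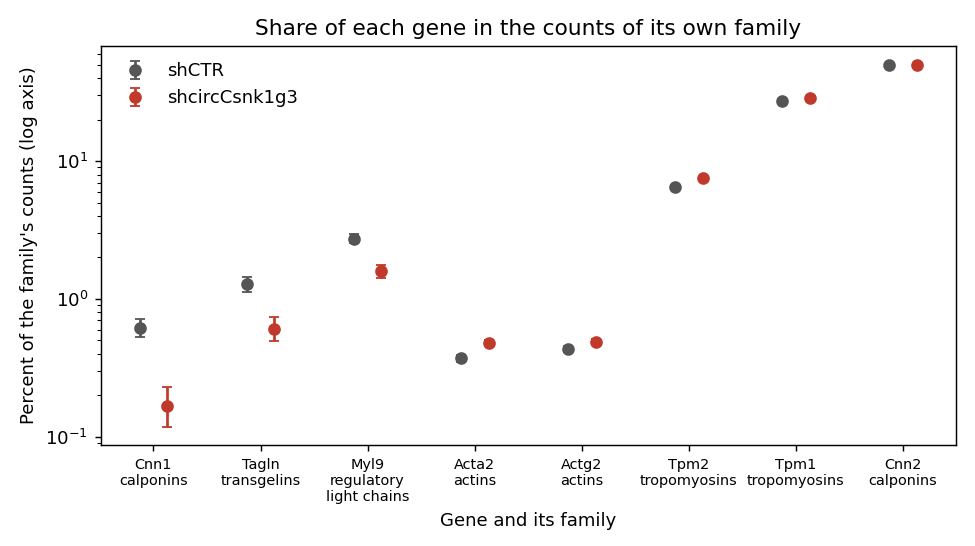
Share of each gene in the summed counts of its protein family (percent, log axis) in the shCTR library (grey) and the shcircCsnk1g3 library (red), with bars for the 95% exact binomial interval. The shares of Cnn1, Tagln and Myl9 were lower in shcircCsnk1g3 and those of Acta2, Actg2, Tpm1 and Tpm2 were higher.

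The other genes of the smooth muscle program were lower more often than higher, most by less than 2-fold. Of 35 listed genes, 25 could be compared. Of these 17 were lower and 8 higher, whereas 49.6% of all genes tested were lower and 50.4% higher. The median of the 25 was -0.18 on the log2 scale. Their interval lay below 0 for 15 and above 0 for 4. That is 60.0% and 16.0%, beside 31% and 29.5% of genes with at least 200 summed counts, a depth that 23 of the 25 reach. Only 1 was at least 2-fold lower, Ldb3, a Z-line protein gene with 8 and 26 counts (-1.39, -2.95 to -0.41), and 2 were at least 2-fold higher, beside 2.55% and 2.13% of all genes. One of these was Des (1.09, -0.14 to 3.0), which rests on 14 and 6 counts. The other was Itga8, the integrin alpha-8 chain of smooth muscle and mesangial cells, with 689 counts in shcircCsnk1g3 and 273 in shCTR and a log2 fold change of 1.44 (1.24 to 1.65). Among genes with at least 200 summed counts the lowest was the LIM protein gene Fhl1 (121 and 228 counts), with -0.80 (-1.14 to -0.48). Vcl, which encodes the adhesion protein vinculin, followed with 12636 and 21617 counts and -0.67 (-0.70 to -0.64). Of the rest, Smtn (smoothelin) was at -0.36 (-0.41 to -0.31), Cald1 (caldesmon) at -0.15 (-0.19 to -0.11) and Mylk, the myosin light chain kinase, at -0.01 (-0.42 to 0.40). Besides Itga8, the genes with an interval above 0 were Csrp2 (3624 and 2839 counts, 0.46, 0.39 to 0.53), Filip1l (0.22, 0.17 to 0.27) and Pdlim7 (0.11, 0.04 to 0.19). Vcl, Smtn, Cald1 and Mylk were picked out after their values were seen. Thus the listed genes differed in both directions. Of the 23 with at least 200 summed counts 0 were 2-fold lower, a count on which little rests, since the share was 0.741% among all genes of that depth.

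Of the 14 transcription factors tested that act on these genes, 0 differed 2-fold, at a depth where 0.741% of all genes were 2-fold lower and 0.563% higher, so that few or none would be counted in a list of this size. Srf had 3201 counts in shcircCsnk1g3 and 3508 in shCTR, a log2 fold change of -0.02 (-0.09 to 0.04). Mkl1, which encodes MRTF-A, was at -0.16 (-0.23 to -0.10) and Mkl2, which encodes MRTF-B, at -0.00 (-0.09 to 0.09). The ternary complex factors Elk1 (0.06, -0.04 to 0.16) and Elk4 (0.09, -0.01 to 0.19) had intervals that spanned 0, and Elk3 was at -0.30 (-0.34 to -0.25). The LIM cofactor Fhl2 was at -0.02 (-0.09 to 0.05). Klf4, a zinc finger factor known for opposing the contractile program when smooth muscle cells dedifferentiate, was the highest of the list, with 12663 and 9386 counts and a log2 fold change of 0.54 (0.50 to 0.58). Of the 14 factors tested, the TEAD group described next included, the interval lay above 0 for 3 (21.4%) and below 0 for 4 (28.6%), beside 29.5% and 31% of genes with at least 200 summed counts, and their median was -0.01. These are levels of mRNA, and the activity of SRF and the MRTF proteins depends on their position in the cell and was not measured.

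The TEAD factors and their coactivators differed in both directions. Tead1 was at -0.19 (-0.23 to -0.15), Tead2 at -0.05 (-0.12 to 0.01), Tead4 at 0.05 (-0.04 to 0.14) and Tead3 at 0.47 (0.32 to 0.62). Yap1 was at -0.15 (-0.21 to -0.10) and its relative Wwtr1 (TAZ) at 0.14 (0.10 to 0.17). Of 21 YAP and TEAD target genes, 15 were lower and 6 higher (71.4% and 28.6%, beside 49.6% and 50.4% of all genes tested), with a median of -0.12. The interval lay below 0 for 13 (61.9%) and above 0 for 4 (19.0%), beside 31% and 29.5% of genes with at least 200 summed counts, and many of the listed genes lie far above that depth. The lowest was Cyr61, a secreted matrix protein gene, with 8689 and 14255 counts (-0.61, -0.65 to -0.57), and the highest was Foxf2, with 223 and 202 counts (0.25, -0.03 to 0.53).

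The genes of stress fibers and focal adhesions, to which the contractile proteins attach, were lower in 18 of 25 cases (72.0%, beside 49.6% of all genes tested), with a median of -0.12. For 16 of them (64.0%) the interval lay below 0 and for 5 above 0, beside 31% and 29.5% of genes with at least 200 summed counts. Flnc, the muscle filamin, was the lowest with 1791 and 3323 counts (-0.78, -0.87 to -0.70), and Lims1 was the highest with 3743 and 3605 (0.16, 0.10 to 0.23). Of 20 genes of the RhoA pathway and myosin regulation, 12 were lower and 8 higher (60.0% and 40.0%, beside 49.6% and 50.4% of all genes), with a median of -0.06, and the interval lay below 0 for 10 and above 0 for 5. The lowest was profilin Pfn1 (23907 and 32462 counts, -0.33, -0.36 to -0.31). The highest was Limk1, the kinase that inactivates cofilin, with 1244 and 737 counts and a log2 fold change of 0.86 (0.73 to 1.0). Of 17 genes induced by TGF-beta, a main inducer of the myofibroblast state, 10 were lower and 7 higher (58.8% and 41.2%, beside the same 49.6% and 50.4%), with a median of -0.08. The interval lay below 0 for 9 (52.9%) and above 0 for 7 (41.2%), beside 28.2% and 26.9% of all genes tested, so that both directions were common. They ranged from Ltbp2 at -0.82 (1292 and 2462 counts, -0.92 to -0.72) to Postn at 1.51 (59 and 21 counts, 0.86 to 2.39), and Skil was the highest with at least 200 summed counts, at 0.52 (5557 and 4182 counts, 0.46 to 0.58). Several genes stand on more than 1 of these lists, among them Vcl, Pdlim5, Actn1 and Ctgf, so that the lists are not separate evidence.

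**Figure D5:**
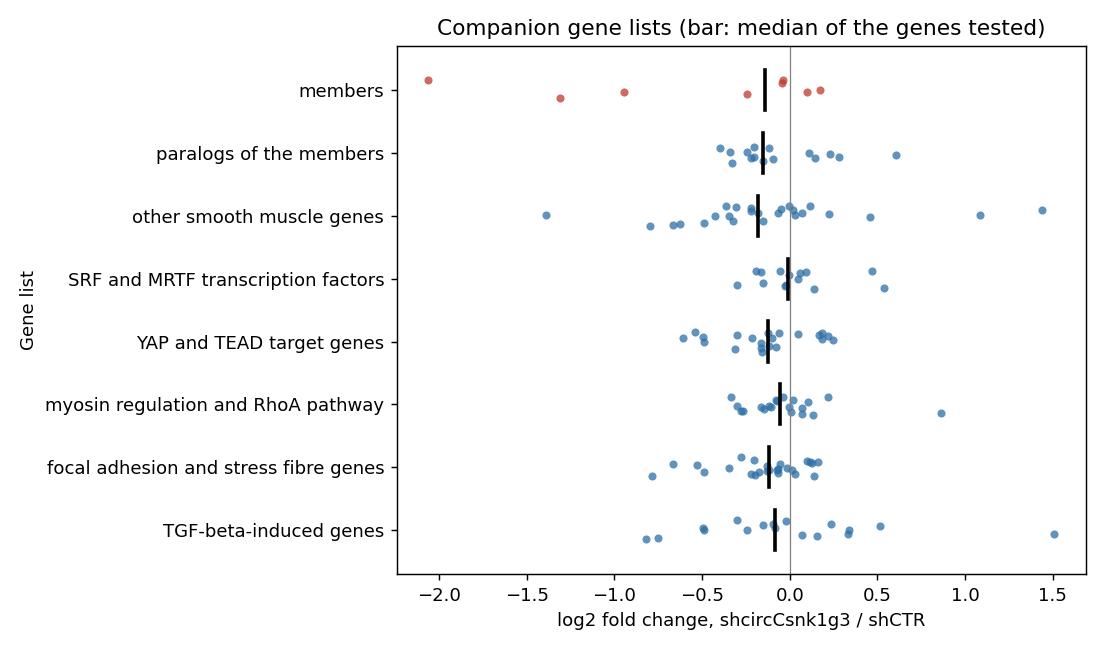
Log2 fold changes (shcircCsnk1g3 over shCTR) of the genes tested in the 9-gene set and in 7 companion lists (the cell type marker lists are not drawn), 1 point per gene and a black bar at the median, with the 9-gene set in red (members on the axis; 8 tested). Medians of these lists lie between -0.18 and -0.01, and the lowest points are Cnn1, then Ldb3, which rests on 8 and 26 counts, then Tagln.

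Sequence shared with other genes was rare at a length of 50 bases in the annotated transcripts. How reads were assigned between similar genes was not examined. Of the 50-base words in the annotated transcripts of each gene, 0.33% of those of Acta2 occurred in transcripts of another gene, and none of those of the other 8 did. Acta2 and Actg2 thus had no word of this length in common, although their proteins are close relatives.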

How the data were processed

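Poly(A) RNA of 2 libraries, 1 per condition, was sequenced with a stranded kit. The authors converted reads with bcl2fastq 2.20, aligned them to GRCm38 with STAR 2.6.1 and quantified genes with RSEM 1.2.28; the deposited estimated counts are whole numbers. A further deposited table gives a scaled signal (TMM-scaled CPM, edgeR 3.30) for 11624 genes, each column being the count times a constant. The 92 spike-in rows were 0 and left out.

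TMM factors came from edgeR 4.0.16 and size factors from DESeq2 1.42.0 in R 4.3.3; intervals came from scipy 1.17.1. For genes at or under 3 counts in both libraries no fold change is printed. Exon lengths and coordinates are from GENCODE M21 (GRCm38), in which 25251 of 25509 gene identifiers were found; the authors' release is not given in the sources used here. The steps were tested on simulated counts.

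The genes and lists were chosen with earlier results of these data known. Named were the 9 genes, their paralogs and the SRF-related factors over the floor, and in each of the other pathway lists the highest and lowest gene with at least 200 summed counts plus genes past 2-fold. Cell type marker lists, given by counts, summed level and examples, were pericyte, fibroblast, striated muscle, leukocyte, endothelial and lung epithelial. Alternatives changed the scaling, prior count, filter, threshold, length or table.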

Additional observations from a re-analysis of the deposited data

How the results depend on the processing

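No paired analysis was possible because each arm held a single library, and no library could be left out for the same reason. The log2 fold changes of the 8 genes were recomputed with DESeq2 size factors, total counts without TMM, prior counts of 0.5 and 10, the deposited scaled table (log2 of the value plus 0.05), no filter on low counts, and at least 200 summed counts. Of these 56 values, 55 stayed within the gene's counting interval, and 1 did not: Tpm1 was at -0.012 with total counts. By construction, total counts, DESeq2 size factors and the deposited table move all genes by nearly the same amount. Both filter settings leave the value of a gene unchanged, so little rests on the number that stayed. The number of genes at least 2-fold lower was 2 in each of these settings, 3 at a 1.5-fold threshold and 1 (Cnn1) at a 4-fold threshold, and 0 were higher in every one of them. The median of the 9-gene set moved from -0.14 to -0.04 without the filter, which adds Lmod1 with 2 counts in each library. The median of the paralogs was -0.10 and that of the other smooth muscle genes -0.07 once genes of very low counts were let in. Among them are 3 paralogs and 4 other smooth muscle genes with 0 counts in both libraries. These enter at a log2 fold change of 0 and so draw a negative median toward 0. Allowing up to 1 base off the CArG pattern, chosen after seeing the data, raised the windows with a match from 2 to 5 of 7. With the longest transcript as length, 10 of 18 levels per length left their counting interval. Depth limits Cnn1 most among the 8 genes of the set that were tested: its interval ran from -2.67 to -1.60, that of Tpm1 from -0.07 to -0.02.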
